A study of Mus musculus with 26 samples.

Results

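The genes for 10 secreted ligands of the bone morphogenetic protein (BMP), growth differentiation factor (GDF) and activin branches of the TGF-β superfamily were examined in mouse brown adipose tissue (BAT), namely Gdf5, Gdf10, Bmp2, Bmp4, Bmp6, Bmp7, Bmp8b, Inhba, Inhbb and Mstn. They are 10 of the 50686 genes in the deposited table and were selected as ligands whose measured counts had been seen in all 4 groups, so their values are given as a description and without p-values. Of the 10 genes, 8 passed the filter on low counts and were among the 17286 genes tested, while Bmp7 and Inhba did not pass it. A further 23 ligands of the superfamily were listed for comparison.

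The libraries came from fat-specific Afadin knockout mice (FAKO) and their control littermates, all adult males on the C57BL/6J background. FAKO mice carry Adiponectin-Cre, which is active in adipocytes, and floxed Mllt4 alleles (Mllt4 flox/flox), the gene now called Afdn. Other cells of BAT therefore keep the gene. All mice were first kept at thermoneutrality for at least 2 weeks. At thermoneutrality, given as 30 °C in the labels, there were 7 controls and 7 mice labelled FAKO. A further 5 controls and 7 mice labelled FAKO were moved to 5 °C for 6 h. Mice are named by the number in their titles, which run from 1 to 28. The labels give the depot as supraclavicular BAT.

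The 26 libraries held 12705969 to 25732258 assigned counts each. Mitochondrial genes took 14.3% to 40.5% of them, with mice 7 and 28 as the only libraries below 20%. Levels are given as CPM, the count divided by the effective library size and scaled. At thermoneutrality Afdn averaged 196 ± 21.0 CPM (SD, n = 7) in the control group against 195 ± 27.4 CPM (SD, n = 7) in the labelled FAKO group, and after cold 73.5 ± 4.27 (SD, n = 5) against 58.5 ± 4.15 CPM (SD, n = 7). The label therefore went with no lower Afdn count that passed the edgeR test (adjusted p = 0.992 at thermoneutrality and 0.116 after cold), and the wording "labelled FAKO" is kept for that reason. After cold the Afdn ranges did not overlap, at 67.9 to 79.2 CPM in control mice and 53.3 to 65.3 CPM in mice labelled FAKO. The log2 fold change for the label there was -0.33 (SE 0.09). At the protein level, the paper reports a smaller cold-induced rise of Afadin in FAKO mice. Kng1, a gene for kininogen, did not exceed 1 count in any control mouse, whereas every mouse labelled FAKO had 123 to 389 counts. Ucp1, the uncoupling protein that produces heat in brown fat, averaged 985 CPM in control mice and 811 CPM in mice labelled FAKO at thermoneutrality, against 16005 and 16429 CPM after cold. By RT-qPCR the paper reports less Ucp1 mRNA in cold-exposed FAKO mice than in controls, a direction that these means do not show.

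BMPs, GDFs and activins are secreted as dimers, freed from their precursors by proprotein convertases, and bind pairs of type I and type II serine/threonine kinase receptors. BMPs and several GDFs signal through SMAD1, SMAD5 and SMAD9, whereas activins, myostatin and TGF-β signal through SMAD2 and SMAD3, and both arms share SMAD4. In adipose tissue BMP7 is known to promote brown adipocyte formation, BMP4 to direct precursors to the adipocyte lineage, and BMP8B to raise the response of brown fat to adrenergic input. Extracellular antagonists such as follistatin, noggin and the gremlins bind the ligands before they reach a receptor.

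At thermoneutrality Gdf5 had the highest level of the 10 ligand genes per kilobase of exon, and after 6 h of cold it was near the bottom of the order. In control mice Gdf5 averaged 4.59 ± 1.11 CPM per kb, followed by Bmp6 with 2.51 ± 0.417, Inhbb with 1.30 ± 0.417 and Gdf10 with 1.08 ± 0.232 CPM per kb (SD, n = 7). Bmp4 came next with 0.517 ± 0.153, then Mstn with 0.220 ± 0.496, Bmp2 with 0.218 ± 0.0717, Bmp7 with 0.104 ± 0.0341, Bmp8b with 0.104 ± 0.0527 and Inhba with 0.0110 ± 0.00929 CPM per kb. The ranges of neighbours in this order overlapped except between Gdf10 and Bmp4 and between Bmp8b and Inhba. After cold the control mice had Bmp6 first, at 2.91 ± 0.456 CPM per kb, and Gdf5 ninth, at 0.0706 ± 0.0198 CPM per kb (SD, n = 5). In mice labelled FAKO after cold Inhbb came first on average, at 3.15 ± 2.99 CPM per kb, with a range that overlapped that of Bmp6 at 2.74 ± 0.434, while Gdf5 came eighth at 0.0599 ± 0.0571 CPM per kb (SD, n = 7).

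**Figure D1:**
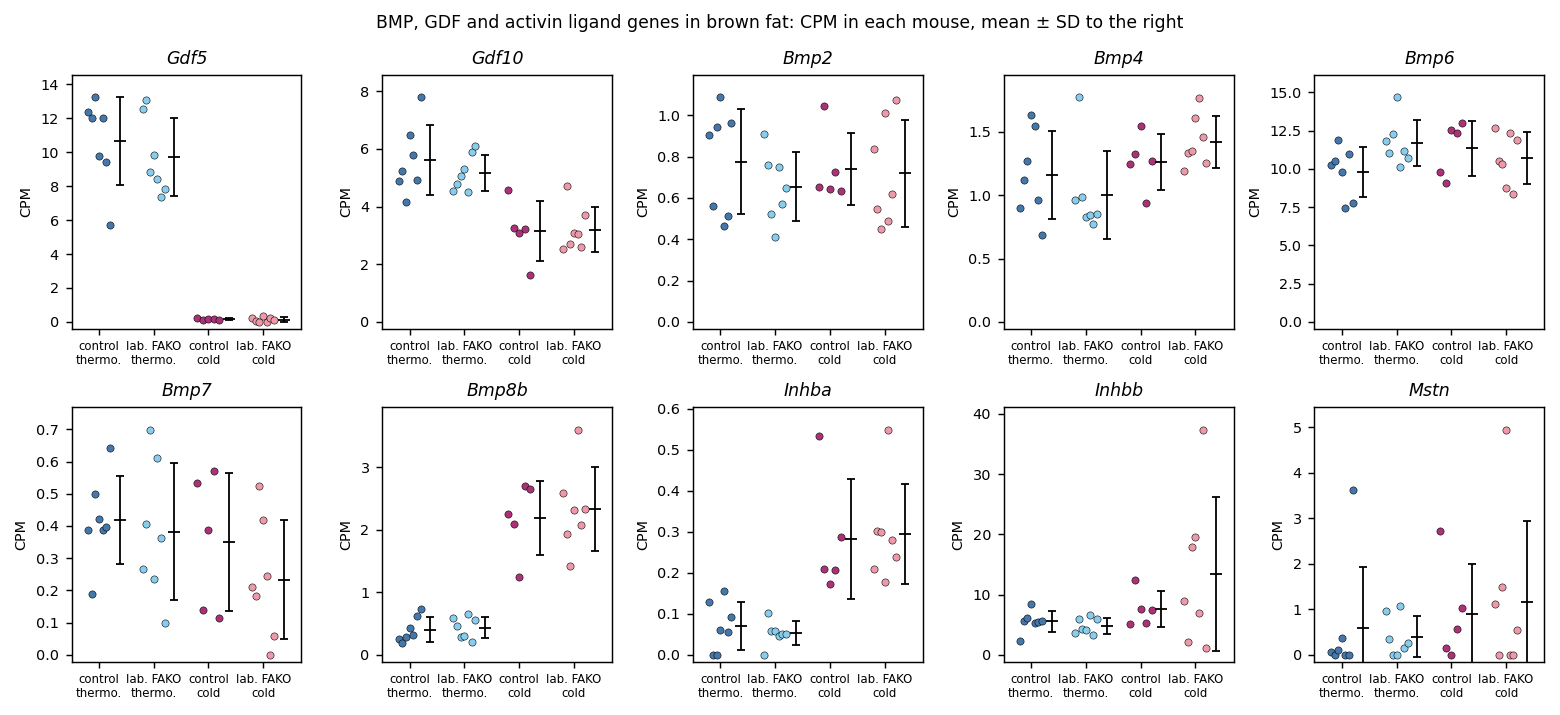
CPM of each of the 10 ligand genes (vertical axes, linear and scaled per gene) in each mouse of the 4 groups, with the mean and SD beside the points; "lab. FAKO" means labelled FAKO and "thermo." thermoneutrality, and SD bars that would pass below 0 are clipped. Gdf5 lies at 5.69 CPM or above in every thermoneutral mouse and at 0.357 CPM or below in every cold mouse, and Bmp8b and Inhba are separated by temperature in the opposite direction.

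Cold exposure separated the mice completely for 3 of the ligand genes in both genotypes. Gdf5 was lower in every cold mouse than in every thermoneutral mouse, and Bmp8b and Inhba were higher. How many of all genes separate the mice in this way was not counted, so nothing is read from this count. Of the 8 ligand genes tested, 3 passed a false discovery rate (FDR) of 0.05 in control mice (Bmp8b higher, Gdf5 and Gdf10 lower) and 5 in mice labelled FAKO (Bmp4, Bmp8b and Inhbb higher, Gdf5 and Gdf10 lower). Over all genes tested, 65.0% passed in control mice (31.6% higher and 33.4% lower) and 68.6% in mice labelled FAKO (33.7% higher and 34.9% lower). Because the members were selected on counts from the same groups, nothing is read from their number. The median log2 fold change of the 8 genes was 0.17 in control mice and 0.32 in mice labelled FAKO, against -0.01 and -0.03 over all genes. Nothing is read from this median either, because the 8 genes were selected and filtered on the same counts.

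**Figure D2:**
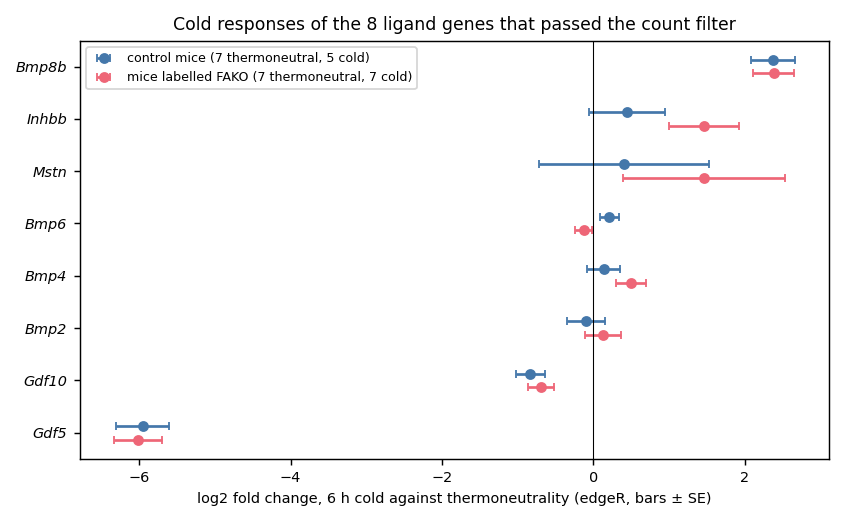
Log2 fold change (horizontal axis, 6 h cold against thermoneutrality, edgeR estimate ± SE) of the 8 ligand genes that passed the count filter, in control mice (blue) and mice labelled FAKO (red). Gdf5 lies near -6 and Bmp8b at 2.38 to 2.39 in both, and the widest bars belong to Mstn.

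Gdf5 (ENSMUSG00000038259.4, chromosome 2, 155941023 to 155945367, minus strand, mm10) encodes a ligand best known from joint and limb development. Its lowest, median and highest values at thermoneutrality were 5.69, 12.0 and 13.2 CPM in control mice and 7.34, 8.85 and 13.1 CPM in mice labelled FAKO. After cold the 5 control mice had 0.237, 0.139, 0.172, 0.156 and 0.115 CPM, and the mice labelled FAKO had 0 to 0.357 CPM with a median of 0.120. The groups did not come near each other, and the counts themselves went from 124 to 258 in each thermoneutral mouse to 0 to 6 in each cold mouse. Mice 24 and 26 had no Gdf5 count at all, which allows up to 0.225 and 0.183 CPM (3 counts, covering counting error only). The log2 fold change was -5.95 (SE 0.35) in control mice and -6.02 (SE 0.32) in mice labelled FAKO. In linear terms Gdf5 was 61.9-fold and 64.9-fold lower. In bulk tissue, fewer cells of a type and less RNA per cell cannot be told apart, and this holds for every gene below.

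Gdf5 shares 936 exonic bases with Gm15557, an antisense gene, and 37.9% of its 100-base windows occur in that gene on the other strand. The strand setting of the counting is not given in the sources used here, so reads from that stretch cannot be assigned to one of the pair with certainty. Gm15557 summed to 24 and 21 counts over the control and labelled FAKO mice at thermoneutrality, and to 3 and 1 after cold. Gdf5 itself summed to 1230 and 1290 counts at thermoneutrality. How reads from the shared stretch were assigned is not known, so these sums do not give the part of Gm15557, which was not tested. The tested genes whose log2 CPM followed Gdf5 most closely over the 26 mice were Klhdc7a, Gm39038 and Apcdd1, with a root mean square difference of 0.62, 0.72 and 0.73 after centring, where Gdf5 itself had an SD of 2.77.

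Gdf10 (ENSMUSG00000021943.6, chromosome 14, 33923587 to 33937983, plus strand), also known as Bmp3b, was lower after cold to a smaller degree. Its lowest, median and highest values were 4.15, 5.24 and 7.80 CPM in thermoneutral control mice and 4.51, 5.06 and 6.09 CPM in thermoneutral mice labelled FAKO. The cold control mice had 4.57, 3.27, 3.09, 3.22 and 1.61 CPM, and the cold mice labelled FAKO 2.52 to 4.72 CPM with a median of 3.05. The highest cold mouse of each genotype, mouse 16 and mouse 23, lay above the lowest thermoneutral mouse, so the temperatures overlapped. With cold its log2 fold change was -0.83 (SE 0.19) in control mice and -0.69 (SE 0.17) in mice labelled FAKO, and Gdf10 passed the FDR threshold in both. Rcn3, Tha1 and Dhx34 were the tested genes closest to it over the 26 mice, with root mean square differences of 0.21, 0.23 and 0.23 on the centred log2 CPM scale.

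Bmp8b and Inhba were the ligand genes whose cold and thermoneutral mice did not overlap with the cold mice above. Bmp8b (ENSMUSG00000002384.2, chromosome 4, 123105165 to 123132099, plus strand) is expressed in mature brown adipocytes and Inhba (ENSMUSG00000041324.13, chromosome 13, 16011851 to 16031621, plus strand) encodes the βA chain, whose homodimer is activin A. Their promoters are shown because they moved in the same direction in every cold mouse, as the 250 bases before the start annotated by RefSeq on GRCm38.p6, chr4:123104911-123105160 and chr13:16011601-16011850 on the plus strand. Capitals mark matches to the motifs listed further down.
Bmp8b: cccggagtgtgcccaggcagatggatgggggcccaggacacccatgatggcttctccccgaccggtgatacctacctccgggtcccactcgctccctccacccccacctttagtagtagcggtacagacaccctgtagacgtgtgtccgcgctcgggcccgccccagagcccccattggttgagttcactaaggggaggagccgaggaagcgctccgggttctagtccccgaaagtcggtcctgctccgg
Inhba: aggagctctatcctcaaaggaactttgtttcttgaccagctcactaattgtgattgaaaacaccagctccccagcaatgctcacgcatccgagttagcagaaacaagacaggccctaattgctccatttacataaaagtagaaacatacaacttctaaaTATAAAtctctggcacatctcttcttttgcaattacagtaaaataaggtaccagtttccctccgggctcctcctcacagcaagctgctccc

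Bmp8b had 0.187, 0.309 and 0.734 CPM as its lowest, median and highest values in thermoneutral control mice, and 0.207, 0.457 and 0.658 CPM in thermoneutral mice labelled FAKO. The 5 cold control mice had 2.25, 2.09, 1.24, 2.70 and 2.65 CPM, and the cold mice labelled FAKO 1.42 to 3.60 CPM with a median of 2.32. The lowest cold mouse of all, mouse 18, was still above the highest thermoneutral one, mouse 7. Its log2 fold change was 2.38 (SE 0.29) in control mice and 2.39 (SE 0.27) in mice labelled FAKO, or 5.20-fold and 5.23-fold. These values rest on 3 to 16 counts per thermoneutral mouse and 19 to 59 per cold mouse. Pfkp, Zdhhc13 and Col4a1 followed Bmp8b most closely over the 26 mice, with root mean square differences of 0.39, 0.43 and 0.44 where Bmp8b had an SD of 1.20.

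Bmp8b has a near copy, Bmp8a, and neighbours that overlap it. Of its 100-base windows 2.88% occur in Bmp8a, 3.94% in the antisense gene Gm17244 and 1.01% in Ppie. Bmp8a had at most 8 counts in any mouse and was not tested, and it summed to 10 and 4 counts over the thermoneutral control and labelled FAKO mice and to 13 and 31 over the cold ones. Gm17244 summed to 2 and 0 counts over the 2 thermoneutral groups and to 24 and 37 over the cold groups. Oxct2b, which lies within Bmp8b on the same strand and shares no exonic base with it, went from 0 and 2 counts to 42 and 45. The sums of Gm17244, Oxct2b and Bmp8a thus moved in the direction of Bmp8b in both genotypes, and their part in its counts was not tested. The sums of control mice cover 7 thermoneutral and 5 cold mice. For Bmp8a in control mice, 7 of the 13 cold counts were in mouse 21.

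Inhba was counted at the edge of detection. Thermoneutral mice had 0 to 2 counts each, with 3 of the 14 at 0, and cold mice had 3 to 9 counts each. In control mice 8 counts over 7 mice stood against 25 over 5 mice, a CPM ratio of 4.06 with a 95% exact counting interval of 1.78 to 10.4. In mice labelled FAKO 7 counts stood against 33, a ratio of 5.61 with an interval of 2.44 to 15.0. These intervals cover counting error only. The gene did not pass the filter on low counts, so it has no fold change from the edgeR fit used for the other ligand genes.

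Inhbb (ENSMUSG00000037035.5, chromosome 1, 119415465 to 119422248, minus strand) encodes the βB chain of activin B and inhibin B and is known to be made by adipocytes. Its lowest, median and highest values were 2.32, 5.55 and 8.40 CPM in thermoneutral control mice and 3.20, 4.31 and 6.67 CPM in thermoneutral mice labelled FAKO. The 5 cold control mice had 5.10, 12.5, 7.68, 5.25 and 7.37 CPM. The 7 cold mice labelled FAKO had 8.95, 2.18, 17.8, 19.6, 6.95, 37.3 and 1.08 CPM, in the order of mice 22 to 28.

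Cold mice labelled FAKO thus held both the highest and the lowest Inhbb of the whole series, in mouse 27 and mouse 28. Their SD of 12.7 CPM around a mean of 13.4 was the widest of the 4 groups. The log2 fold change with cold was 0.45 (SE 0.50) in control mice and 1.47 (SE 0.46) in mice labelled FAKO, and only the second passed the FDR threshold. Without mouse 27 it was 0.95 (SE 0.42) and without mouse 28 it was 1.67, and it passed in both cases. The mean of log2 CPM, which gives less weight to one high mouse, differed between the temperatures by 0.75 in mice labelled FAKO against 0.45 in control mice. The difference between these cold responses was 1.02 (SE 0.68) and did not pass.

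Acvr1b, Selp and Il33 were the tested genes closest to Inhbb over the 26 mice, with root mean square differences of 0.59, 0.62 and 0.64 where Inhbb had an SD of 1.00. Acvr1b encodes ALK4, the type I receptor for activins. Mouse 27 had the highest Acvr1b of all mice, 49.9 CPM. Selp, the gene of P-selectin, belongs to endothelial cells and platelets. The part of mouse 27's library in the Inhbb values is given above by leaving it out.

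Bmp4 (ENSMUSG00000021835.14, chromosome 14, 46383520 to 46390669, minus strand) had 0.688, 1.12 and 1.63 CPM as its lowest, median and highest values in thermoneutral control mice and 0.775, 0.849 and 1.78 CPM in thermoneutral mice labelled FAKO. After cold the control mice had 1.25, 1.32, 1.54, 0.935 and 1.27 CPM and the mice labelled FAKO 1.19 to 1.77 CPM with a median of 1.35. All cold mice labelled FAKO were above 6 of the 7 thermoneutral ones, and mouse 9 was above all of the cold ones. For Bmp4 the log2 fold change was 0.14 (SE 0.21) in control mice and 0.50 (SE 0.20) in mice labelled FAKO. The latter passed the FDR threshold narrowly and fell out in 9 of 23 other settings, among them leaving out any one of mice 8, 12, 13, 14, 25 and 26. The nearest genes to Bmp4 were Samd8, Zkscan1 and Herpud2, at 0.24 to 0.25 on the centred log2 CPM scale where Bmp4 had an SD of 0.36.

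Bmp6, Bmp2 and Bmp7 passed the threshold in neither genotype or were not tested. Bmp6 (ENSMUSG00000039004.5, chromosome 13, 38345107 to 38500302, plus strand), which is known as the ligand that sets hepcidin in the liver, was the steadiest of the well-counted ligand genes. Its groups averaged 9.79 ± 1.63 (SD, n = 7), 11.7 ± 1.51 (SD, n = 7), 11.3 ± 1.78 (SD, n = 5) and 10.7 ± 1.69 CPM (SD, n = 7) in the order control and labelled FAKO at thermoneutrality, then control and labelled FAKO after cold. The log2 fold change with cold was 0.21 (SE 0.13) in control mice and -0.13 (SE 0.12) in mice labelled FAKO. B3gat2, Ptprb and Naa16 lay closest to it, at 0.17, 0.18 and 0.19 where Bmp6 had an SD of 0.23. Bmp6 shares 224 exonic bases with Txndc5 on the opposite strand, or 3.29% of its 100-base windows.

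Bmp2 (ENSMUSG00000027358.6, chromosome 2, 133552159 to 133562885, plus strand) ranged from 0.413 to 1.09 CPM over all mice, on 6 to 21 counts each, and the ranges of all 4 groups overlapped. Its log2 fold change with cold was -0.10 (SE 0.25) in control mice and 0.13 (SE 0.24) in mice labelled FAKO. Bmp7 (ENSMUSG00000008999.7, chromosome 2, 172868012 to 172940321, minus strand) had 0 to 14 counts per mouse. Its CPM over all cold control mice was 0.842 of that over thermoneutral ones, with an exact 95% counting interval of 0.526 to 1.33, and 0.584 in mice labelled FAKO, with an interval of 0.347 to 0.960. Counting intervals leave out the spread between mice, and the mice overlapped in both genotypes. Pcdh7, Tnfrsf11a and Pdp1 were closest to Bmp2, at 0.29, 0.31 and 0.32 where Bmp2 had an SD of 0.37.

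Mstn (ENSMUSG00000026100.6, chromosome 1, 53061640 to 53068079, plus strand) encodes myostatin, a ligand made mainly by skeletal muscle that limits muscle mass, and its counts went with skeletal muscle markers from mouse to mouse. Mice had 0 to 83 counts, and 9 of the 26 had none. The highest values were 4.94 CPM in mouse 25, 3.62 in mouse 7 and 2.73 in mouse 16. These same mice had the highest summed CPM of 12 skeletal muscle markers, 7588, 5557 and 4817. The 9 mice without an Mstn count had muscle sums of 1.29 to 92.1 CPM.

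The muscle sums spanned 7.26 to 5557 CPM in thermoneutral control mice, 4.36 to 1522 in thermoneutral mice labelled FAKO, 1.29 to 4817 in cold control mice and 2.18 to 7588 in cold mice labelled FAKO. Their medians were 63.6, 808, 826 and 804 CPM in the same order, lowest in thermoneutral control mice. None of the 12 markers was at 0 in all mice, and Acta1, Ckm and Myh4 reached 21204, 13463 and 63910 counts in a single mouse. Myod1, Myog and Pax7, which mark muscle precursors, had at most 6, 16 and 3 counts. Of the 9 muscle markers tested, 0 passed in any of the 4 comparisons of groups or the difference of the cold responses by edgeR, and 0 had an unadjusted p under 0.05. With sums spread this widely over mice, that result does not show equal muscle content in the groups. With cold Mstn had a log2 fold change of 0.41 (SE 1.13) in control mice and 1.47 (SE 1.07) in mice labelled FAKO. Without mouse 7 the value in control mice was 3.12 and passed the threshold. Sgca, Rtn2 and Yipf7 followed Mstn most closely, at 0.46, 0.56 and 0.58 where Mstn had an SD of 1.77, and Sgca encodes a sarcoglycan of the muscle membrane. The part of muscle in the Mstn values was not tested.

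**Figure D3:**
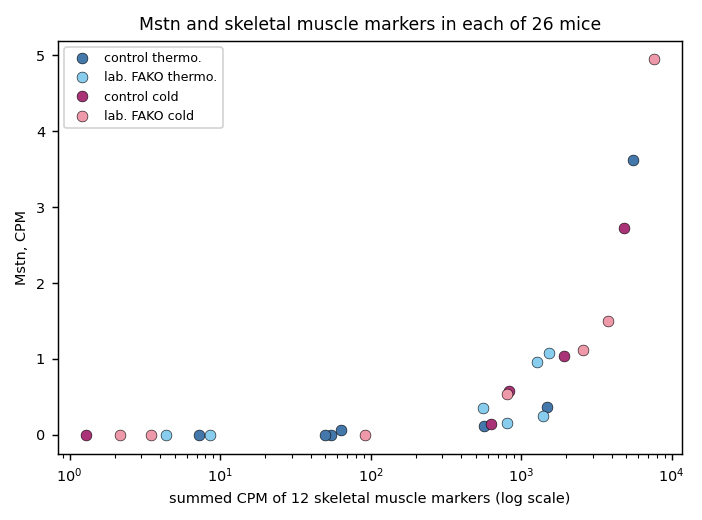
Mstn CPM (vertical axis, linear) against the summed CPM of 12 skeletal muscle markers (horizontal axis, log scale), with 1 point per mouse coloured by group. The 9 mice at 0 for Mstn have muscle sums of at most 92.1 CPM, and the 3 highest Mstn values belong to the 3 highest sums, in 3 different groups.

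Promoter windows from RefSeq, 250 bases before to 50 after the annotated start, were found for 7 of the 10 ligand genes, all but Gdf5, Bmp2 and Bmp7. The window of Mstn is shown because several motifs were found in it, as its 250 upstream bases on the plus strand of GRCm38.p6, chr1:53061390-53061639.
Mstn: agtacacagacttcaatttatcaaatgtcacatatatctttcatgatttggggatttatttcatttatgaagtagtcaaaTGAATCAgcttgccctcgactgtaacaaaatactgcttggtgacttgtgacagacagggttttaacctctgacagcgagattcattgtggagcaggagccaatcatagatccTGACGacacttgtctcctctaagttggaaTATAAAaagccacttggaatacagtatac

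The cyclic AMP response element TGACGTCA, the sequence bound by CREB, was in 0 of the 7 windows and in 1.79% of all 32851 windows, searched on both strands as were all motifs. Its shorter form TGACG, which overlaps it, was in 1 window, that of Mstn 58 bases before the start, and in 20.8% of all windows. The AP-1 motif TGANTCA was in the Mstn window alone, 170 bases before the start, against 7.81% of all. The NR4A motif AAAGGTCA was in none of the 7 and in 1.51% of all windows. The E-box CACGTG was found in Bmp6, 127 bases before the start, and in Bmp4, 188 bases before it, against 7.15% of all windows. The BMP SMAD motif GGCGCC was found in Gdf10, 16 bases after the start, against 11.9%. TATAAA, the TATA box, was found in Mstn, 29 bases before the start, and in Inhba, 91 bases before it, against 13.6%. The Bmp8b window held a match to none of these 7 motifs, which says only that these letters are not in it.

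None of the ligand genes tested passed the threshold for the FAKO label. By edgeR, 0 of the 8 tested ligand genes passed the FDR threshold at thermoneutrality and 0 after cold, against 0.0810% and 0.139% of all genes, and 0 passed for the difference of the cold responses, against 1.16% of all genes. At an unadjusted p under 0.05 the numbers were 1, 0 and 0, and DESeq2 called 0 in each. Every ligand gene had overlapping ranges in control mice and mice labelled FAKO at each temperature. Bmp6 was higher by 0.25 (SE 0.12) on the log2 scale in mice labelled FAKO at thermoneutrality and differed by -0.09 (SE 0.13) after cold, with a difference between its cold responses of -0.34 (SE 0.17). For Gdf5 the label went with -0.13 (SE 0.20) and -0.20 (SE 0.55), and for Bmp8b with 0.09 (SE 0.32) and 0.10 (SE 0.26), at thermoneutrality and after cold. The values furthest from 0 were imprecise. Inhbb was at 0.83 (SE 0.50) after cold, and at 0.32 without mouse 27. Mstn was at -0.67 (SE 1.11) at thermoneutrality, and at 2.09 without mouse 7, and the difference of its cold responses was 1.06 (SE 1.56).

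The receptors of these ligands moved in both directions with cold. Of 18 receptor and co-receptor genes 16 were tested, and in each genotype 4 were higher and 5 lower at an FDR of 0.05. Over all genes tested, 31.6% were higher and 33.4% lower in control mice, and 33.7% and 34.9% in mice labelled FAKO. The counts of this and every other pathway list are to be read against those shares. Acvr2b, a type II receptor for activins and myostatin, had log2 fold changes of -2.06 in control mice (edgeR adjusted p = 6.3e-09) and -1.73 in mice labelled FAKO (adjusted p = 1.2e-08). Rgma, a BMP co-receptor, fell by 1.67 and 1.47, and Tgfbr2, the type II receptor for TGF-β, fell by 1.43 and 1.05. Eng, the endothelial co-receptor for BMP9 and TGF-β, rose by 1.18 and 0.95. Endothelial markers moved in both directions, with 4 of 10 higher and 6 lower in control mice and 3 higher and 5 lower in mice labelled FAKO. Their summed CPM was 718 to 923 and 809 to 1054 in thermoneutral control mice and mice labelled FAKO, and 979 to 1100 and 839 to 1088 after cold, with no marker at 0 in all mice. Their part in the Eng values was not tested.

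Bmpr2, the type II receptor for BMPs, was the only pathway gene of 79 tested whose cold response differed between the genotypes by edgeR. Over all genes tested 1.16% passed for this difference, and 1 gene of 79 is to be read against that share. Bmpr2 averaged 109 CPM (range 105 to 117) in thermoneutral control mice, 129 (121 to 142) in thermoneutral mice labelled FAKO, 151 (138 to 162) in cold control mice and 127 (112 to 135) in cold mice labelled FAKO. No thermoneutral control mouse overlapped with the mice labelled FAKO at the same temperature, and none of the cold control mice overlapped with the cold mice labelled FAKO, where the order was the opposite. The log2 fold change with cold was 0.47 (SE 0.06, adjusted p = 3.7e-08) in control mice and -0.02 (SE 0.05, adjusted p = 0.743) in mice labelled FAKO, and the difference between them was -0.49 (SE 0.08, adjusted p = 0.0022). The label itself went with 0.24 (SE 0.05, adjusted p = 0.0671) at thermoneutrality and -0.25 (SE 0.06, adjusted p = 0.0732) after cold. The difference of the cold responses passed in every setting tried, while the 2 label comparisons passed in some of them.

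**Figure D4:**
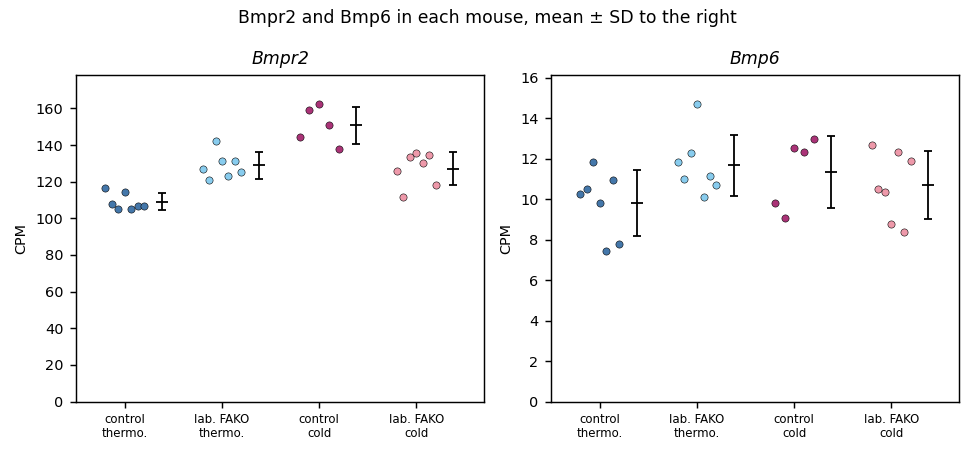
CPM of the receptor gene Bmpr2 and of the ligand gene Bmp6 (vertical axes, linear from 0) in each mouse of the 4 groups, with the mean and SD beside the points. Bmpr2 averages 109, 129, 151 and 127 CPM from left to right, with no overlap between control mice and mice labelled FAKO at either temperature, and the groups of Bmp6 overlap.

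Among the SMADs, all 6 of which were tested, Smad4 was higher after cold by 0.45 in control mice (adjusted p = 1.9e-08) and 0.36 in mice labelled FAKO (adjusted p = 1.9e-07). Smad1, of the BMP arm, fell by 0.59 and 0.66, and Smad2, of the activin arm, fell by 0.25 and 0.27. Smad5 passed in mice labelled FAKO only, at -0.20 (adjusted p = 0.00048) against -0.10 (adjusted p = 0.0761) in control mice, and the difference did not pass. In all, 1 SMAD was higher and 3 lower in control mice, and 1 was higher and 4 lower in mice labelled FAKO.

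Of 12 known targets of BMP signalling 11 were tested, and 1 rose and 6 fell in control mice, with a median log2 fold change of -0.79 against -0.01 over all genes. In mice labelled FAKO 2 rose and 7 fell, with a median of -0.67 against -0.03. Over all genes tested, 65.0% and 68.6% passed in the 2 genotypes, so the 7 and 9 of 11 called are to be read against that, and the list itself was not tested. The summed CPM of 8 mural cell markers was 594 to 828.7 and 627 to 771 in thermoneutral control mice and mice labelled FAKO, and 520.4 to 609.6 and 473 to 563 after cold, with 3 markers higher and 5 lower in each genotype. That of 6 white adipocyte markers was 290 to 517 and 291 to 439, and 70.3 to 92.9 and 69.2 to 147 after cold. The single markers did not all follow that sum. Of the 5 tested, 0 were higher and 1 lower in control mice, and 2 were higher and 2 lower in mice labelled FAKO. No marker of either list was at 0 in all mice, and their part in the target values was not tested. Id4, Id2 and Id3, inhibitors of basic helix-loop-helix factors, fell by 1.85, 1.34 and 0.85 in control mice and, in mice labelled FAKO, by 1.75, 1.24 and 0.67, while Smad7 rose by 1.18 and 1.17. Smad7 is an inhibitory SMAD induced by both arms and stands in 3 of the lists. Smad6, the inhibitory SMAD of the BMP arm, fell by 0.79 and 0.78, and Bambi, a decoy receptor, fell by 0.79 and 0.57. Tgif1, a corepressor of SMAD2, rose by 0.70 and 0.95. The 12 intracellular inhibitors as a list had 6 higher and 4 lower in control mice and 6 higher and 3 lower in mice labelled FAKO.

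Of 10 targets of activin and TGF-β signalling, 5 rose and 1 fell in control mice, with a median of 0.25, and 6 rose and 1 fell in mice labelled FAKO, with a median of 0.56. Ccn2, a matricellular growth factor, rose by 2.48 (SE 0.31, adjusted p = 8.8e-08) in control mice and, in mice labelled FAKO, by 3.06 (SE 0.30, adjusted p = 9.9e-10). Fn1, the gene of fibronectin, was at -0.02 in control mice (adjusted p = 0.935) and rose by 0.66 in mice labelled FAKO (adjusted p = 0.0047), and the difference did not pass. Macrophage markers, which also moved with cold, had 5 of 8 higher and 2 lower in control mice and 6 higher and 2 lower in mice labelled FAKO. Their summed CPM was 129 to 200.3 and 131 to 168 in the same order at thermoneutrality, and 194 to 223 and 197 to 270.4 after cold, with no marker at 0 in all mice. Their part in these lists was not tested.

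**Figure D5:**
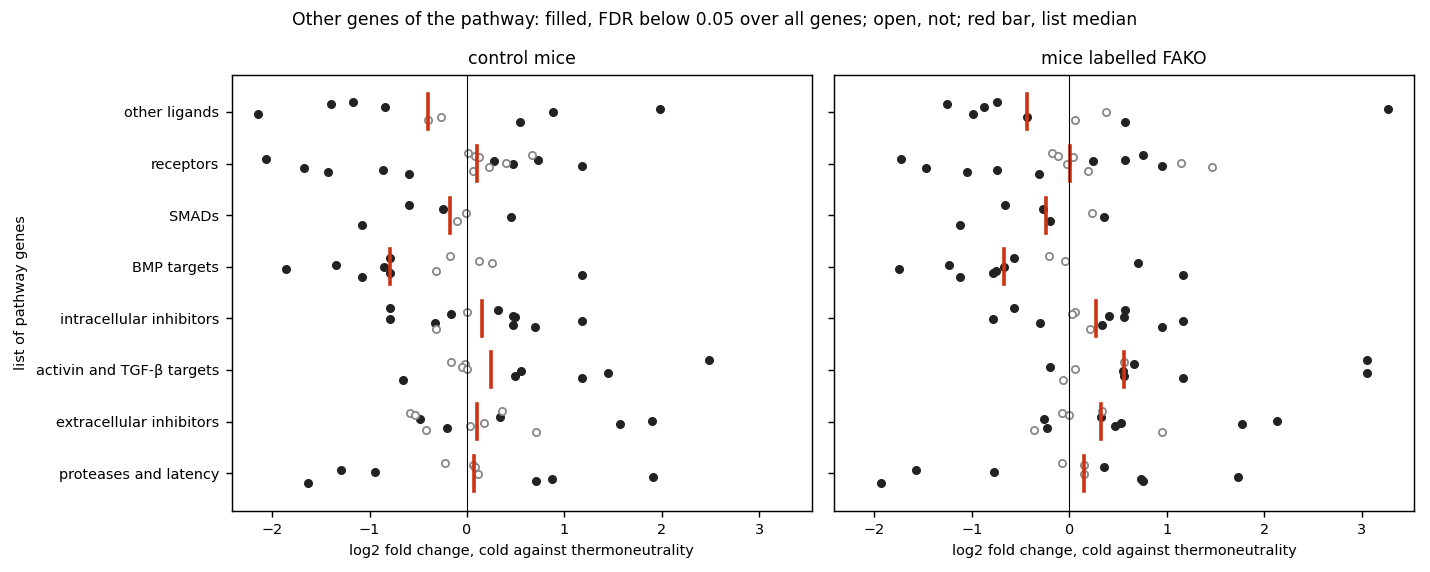
Log2 fold change with cold (horizontal axes) of the tested pathway genes that are not among the 10 ligands, by list, in control mice (left) and mice labelled FAKO (right); filled points passed an FDR of 0.05 over all genes, open points did not, and red bars are list medians. The BMP targets have the lowest median in both, at -0.79 and -0.67, and the activin and TGF-β targets the highest in both, at 0.25 and 0.56.

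Of 19 extracellular antagonists 12 were tested, with 3 higher and 2 lower in control mice and 5 higher and 2 lower in mice labelled FAKO. Fst, which encodes follistatin and neutralises activins and myostatin, rose by 1.90 (SE 0.25, adjusted p = 2.5e-07) in control mice and, in mice labelled FAKO, by 2.13 (SE 0.24, adjusted p = 1.1e-08), from 4.38 and 4.19 CPM to 16.5 and 18.4 CPM. Fstl1, a follistatin-like glycoprotein, was at 0.17 (adjusted p = 0.0559) and rose by 0.53 (adjusted p = 3.0e-07), and Nbl1, which binds BMPs, was at 0.03 (adjusted p = 0.856) and rose by 0.47 (adjusted p = 0.0019). By edgeR the difference of the cold responses passed for neither gene (adjusted p = 0.0926 for Fstl1). Dand5 fell by 0.48 in control mice and, in mice labelled FAKO, by 0.26, where the call (adjusted p = 0.0453) was lost in 10 of 23 other settings.

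Among the convertases, astacin proteases and latency proteins, 10 of 11 were tested, with 3 higher and 3 lower in control mice and 4 higher and 3 lower in mice labelled FAKO. Pcsk5, a proprotein convertase that cleaves ligand precursors, rose by 1.91 (adjusted p = 1.3e-13) and 1.73 (adjusted p = 2.0e-13). Tll1, an astacin protease that cleaves chordin, fell by 1.63 and 1.93. Ltbp2 and Ltbp3, of the latent TGF-β binding protein family, fell by 1.30 and 0.94 in control mice and, in mice labelled FAKO, by 1.57 and 0.78.

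Of the 23 other ligands only 9 were tested, with 3 higher and 4 lower in control mice and 2 higher and 5 lower in mice labelled FAKO. Gdf15, a stress-induced ligand that acts through the hindbrain receptor GFRAL, rose by 1.98 (SE 0.51, adjusted p = 0.0014) and 3.27 (SE 0.54, adjusted p = 5.9e-06). Bmp5, of the same subgroup as Bmp6 and Bmp7, fell by 1.39 and 1.25. Bmp3, which opposes other BMPs and is the closest relative of Gdf10, fell by 1.17 and 0.74, and Gdf11, the closest relative of Mstn, fell by 0.85 and 0.87. Over all 104 pathway genes 79 were tested, of which 23 rose and 25 fell in control mice and 27 rose and 27 fell in mice labelled FAKO. Of all genes tested, 65.0% and 68.6% passed in the same order, and the pathway counts did not exceed those shares. For the label 0 pathway genes passed at either temperature by edgeR, with 7 and 6 at an unadjusted p under 0.05, and DESeq2 called 1 at each.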

How the data were processed

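Total RNA from BAT was depleted of ribosomal RNA, made into stranded libraries and sequenced as 100-base single reads. The authors aligned reads to mm10 with STAR 2.5.2b assigned them to GENCODE M13 genes with featureCounts 1.5.2, and deposited raw counts, 1 column per mouse; the strand setting is not given in the sources used here. The study's own tests used edgeR 3.22.0. Gene symbols, positions and exon lengths were taken from GENCODE M21 (GRCm38, that is mm10) and promoters from RefSeq.

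Counts were fitted with edgeR 4.0.16 in R 4.3.3 (glmQLFit and glmQLFTest, ~0 + group over all 26 mice, filterByExpr by group, TMM factors) with Benjamini-Hochberg adjustment over 17286 genes and a threshold of 0.05. CPM used effective library sizes, and log2 CPM a prior count of 2. SEs are the absolute log2 fold change divided by the square root of F. The fit was tested on simulated data. Alternatives were other scalings, the edgeR revised quasi-likelihood method, DESeq2 1.42.0, no filter, at least 10 counts in every mouse, only the groups compared, a prior count of 0.5, each mouse left out in turn (26 fits) and, chosen after seeing the data, mice 7 and 28 left out together. The named pathway genes are, per list, the 4 past the threshold with the largest cold change in either genotype and a mean of at least 1 CPM, and any gene past it for the label or the difference of the cold responses. For each tested ligand gene the 3 nearest of 14246 genes with at least 1 CPM were named. Acvr1b by mouse and Tgfbi were chosen after their values were seen, and 1 gene that the rule names is not reported here. The members and lists were chosen with earlier results of these data known. Each mouse is 1 sample.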

Additional observations from a re-analysis of the deposited data

Results flagged for a closer look

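In 40 combinations of ligand gene and group, 6 held a mouse that stood apart from the others of its group by Dixon's 95% criterion on log2 CPM. On the CPM scale the set of mice that meet it differs. Chance meets it in about 1 of 20 groups of normally distributed values, which genes with few counts need not follow. Among thermoneutral control mice those that stood apart were mouse 7, lowest for Gdf5 at 5.69 CPM and highest for Mstn at 3.62 CPM, and mouse 1, lowest for Inhbb at 2.32 CPM. Mouse 7 also had the lowest mitochondrial share of all libraries, 14.3%, and the highest muscle marker sum of its group, 5557 CPM, and their part in its Gdf5 value was not tested. Mouse 9, among thermoneutral mice labelled FAKO, was highest for Bmp4 at 1.78 CPM. Mouse 17, a cold control mouse, was highest for Bmp2 at 1.05 CPM, on 15 counts, and mouse 26, a cold mouse labelled FAKO, was highest for Inhba at 0.549 CPM, on 9 counts.

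Bmpr2 was the pathway gene whose cold response differed between the genotypes, by -0.49 on the log2 scale in mice labelled FAKO minus control mice (edgeR interaction, adjusted p = 0.0022). Over all genes tested 1.16% passed for this difference.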

How the results depend on the processing

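No paired analysis was possible because the mouse numbers in the titles are not shared between groups. With at least 10 counts required in every mouse, 4 ligand genes were tested, and 1 passed with cold in control mice and 3 in mice labelled FAKO, since the filter removes genes near 0 in one group. Library size alone moved the median log2 fold change of all genes with cold to -0.14 in control mice and -0.34 in mice labelled FAKO, and upper-quartile factors moved it to -0.12 and -0.18. With library size alone, Bmp4 was at 0.17 and Bmp6 at -0.43 in mice labelled FAKO, which is 0.52 and -0.08 relative to that shift, and under both scalings 2 ligand genes passed as higher and 3 as lower in that genotype, Bmp4 dropping out and Bmp6 passing. The pathway genes then split into 16 higher and 26 lower in control mice and 13 and 36 in mice labelled FAKO with library size alone, and into 23 and 32 in mice labelled FAKO with upper-quartile factors. Under those 2 scalings Bmpr2 passed as lower with cold in mice labelled FAKO, at -0.34 and -0.18. To the digits given, these values equal the shifted medians of all genes in that genotype.

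For the label at thermoneutrality, 1 pathway gene, Bmpr2, passed with library size alone, upper-quartile factors, at least 10 counts, only the groups compared, DESeq2, and mice 7 and 28 left out, and 0 to 1 passed with single mice left out (1 without mouse 7 or mouse 9). After cold 1 passed, again Bmpr2, with upper-quartile factors, at least 10 counts and DESeq2. For the difference of the cold responses 3 passed with DESeq2 (Bmpr2, Tgfbi and Fstl1), 2 with mice 7 and 28 left out (Bmpr2 and Tgfbi), and 1 to 2 with single mice left out, the second being Tgfbi without mouse 28. Without a filter 10 ligand genes were tested, and Inhba passed as higher in both genotypes, at 1.92 (SE 0.50) in control mice and 2.33 (SE 0.48) in mice labelled FAKO. Gdf5, Gdf10 and Bmp8b passed in both genotypes in every setting that tested them. Smad4, Fstl1, Nbl1 and Fn1 were not called with cold in mice labelled FAKO with library size alone. Low counts limit Inhba, Bmp7 and Bmp2, which never exceeded 9, 14 and 21 counts in a mouse.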
